A study of Rattus norvegicus with 6 samples.

Results

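Genes that carry cells through G2 and mitosis were examined in the rat mammary tumour line LN4D6, with and without transfection of CREB3L1, a factor tethered to the endoplasmic reticulum until proteases free its part that acts on genes in the nucleus. The 40 genes were taken by name from a list of mitosis and G2/M genes, and every probe set annotated with exactly 1 of those symbols was used. That gave 52 probe sets for 35 of the 40 genes, out of 31042 probe sets and 14217 genes tested. Cdc25c, Kif4a, Tpx2, Nek2 and Ncapg had no probe set annotated with that symbol alone and are not analysed here. For a gene with several probe sets, the one with the highest mean over all arrays stands for the gene, and the differences of further probe sets above background are given in a paragraph of their own.

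Total RNA from 3 untransfected samples and 3 samples transfected with CREB3L1 was labelled by the 3' IVT method and hybridised to Affymetrix rat arrays, 1 array per sample. No other treatment, time point or control plasmid is named in the labels, and they do not say from which species the CREB3L1 construct came or whether the transfected cells were a pool or 1 clone. Values are log2 RMA expression values, differences are CREB3L1 minus untransfected, the error after a difference is its SE, and intervals are 95% intervals from limma. Adjusted p-values are Benjamini-Hochberg values over all 31042 probe sets.

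Entry into mitosis is driven by cyclin-dependent kinase 1 bound to A and B type cyclins, and the kinases PLK1, Aurora A and Aurora B take part in building the spindle and correcting its attachments. The spindle checkpoint holds back the anaphase-promoting complex until every chromosome is attached, after which securin and cyclin B are destroyed and the sisters part. Transcripts of these genes build up together in G2 of dividing cells and are low in resting cells, and many of their promoters hold CCAAT boxes, bound by NF-Y, and the CHR element, read by the MuvB complex with B-MYB and FOXM1. In a population of cells, a smaller share of cells in G2 and mitosis and less of each transcript per cell cannot be told apart by these arrays.

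RefSeq promoters of assembly GRCr8, each spanning 250 bases before to 50 after the annotated start, were matched for 35 of the 40 genes, with 36 promoters because Kif2c has 2 entries. Ccna2, Aurkb, Ube2c, Tpx2 and Foxm1 had no entry. The letters CCAAT, searched on both strands, were present in 30 of the 36 promoters (83.3%), against 37.5% of all 33469 promoters of the same length. At least 2 copies were present in 21 of the 36, which is 58.3% against 11.2%. The CHR letters TTTGAA or TTTAAA, also on both strands, were present in 32 of the 36 (88.9%), against 28.3% of all promoters, and 27 of the 36 (75%) held both a CCAAT and a CHR match, against 11.3%. In Cdca8 and Mki67 a CCAAT match overlapped a CHR match. The median GC content was 57.8% in the member promoters and 51.7% in all promoters. Of 15059 protein-coding promoters with a GC content from 45% to 70% (median 56.7%), 38.6% held CCAAT, 21% a CHR match and 8.35% both. A match of letters describes the sequence and is not evidence of a bound site.

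Promoters of 4 genes are shown because the results below turn on them or because they show the typical layout. Ccnb1, the cyclin B1 gene (chr2:33655176-33655475, minus strand), has CCAAT matches that begin 82 and 50 bases before the start and TTTAAA that begins 25 bases before it. Prc1 (chr1:143659231-143659530, plus strand) and Mki67 (chr1:199952544-199952843, minus strand) had the smallest p-values of the members that lay higher with all 6 arrays. Cdc25b (chr3:138859923-138860222, plus strand), which had the smallest p-value of those that lay lower with and without CREB3L1 replicate 3, has 1 CCAAT match, in reverse, and no CHR match in this window. Capitals mark the CCAAT and CHR letters named above, on either strand, and the build is GRCr8.
Ccnb1: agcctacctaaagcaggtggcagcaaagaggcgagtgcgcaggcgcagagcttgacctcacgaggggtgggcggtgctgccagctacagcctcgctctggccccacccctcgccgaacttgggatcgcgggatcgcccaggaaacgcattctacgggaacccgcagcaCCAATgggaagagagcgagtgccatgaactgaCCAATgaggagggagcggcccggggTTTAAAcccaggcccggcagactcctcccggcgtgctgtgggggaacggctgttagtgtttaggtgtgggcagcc
Prc1: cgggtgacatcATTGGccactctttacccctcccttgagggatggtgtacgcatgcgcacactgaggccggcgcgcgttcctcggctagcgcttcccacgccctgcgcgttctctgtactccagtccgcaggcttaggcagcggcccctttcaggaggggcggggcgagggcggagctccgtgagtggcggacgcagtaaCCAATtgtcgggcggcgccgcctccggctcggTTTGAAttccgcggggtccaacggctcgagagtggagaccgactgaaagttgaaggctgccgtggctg
Mki67: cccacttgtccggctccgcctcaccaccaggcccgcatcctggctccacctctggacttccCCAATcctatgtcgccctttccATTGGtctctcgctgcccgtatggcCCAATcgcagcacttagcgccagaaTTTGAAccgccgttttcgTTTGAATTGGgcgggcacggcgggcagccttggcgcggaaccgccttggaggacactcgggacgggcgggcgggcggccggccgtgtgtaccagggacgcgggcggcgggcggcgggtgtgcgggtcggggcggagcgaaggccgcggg
Cdc25b: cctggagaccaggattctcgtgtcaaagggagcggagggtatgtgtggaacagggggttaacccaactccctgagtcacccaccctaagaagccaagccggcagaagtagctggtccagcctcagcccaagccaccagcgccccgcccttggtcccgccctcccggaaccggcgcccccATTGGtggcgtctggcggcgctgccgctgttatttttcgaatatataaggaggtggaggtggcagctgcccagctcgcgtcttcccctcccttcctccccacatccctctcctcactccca

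The arrays had similar value distributions, with 37.9% to 38.6% of probe sets at or above a log2 value of 5, which served as the background level. CREB3L1 replicate 3 stood apart: its 3' Gapdh probe set exceeded the 5' one by 4.77, against -0.16 to -0.10 on the other 5 arrays, and the beta-actin gap was 7.44 there and 2.35 to 3.41 elsewhere. Counts and differences of the mitosis and G2/M genes are therefore given with all 6 arrays and without this array. Of the mammary epithelial markers read, the keratin genes Krt8, Krt5 and Krt14 were above background on every array, whereas Krt18, Krt19, Krt7, Epcam and Cdh1 were not. Of the mesenchymal markers, Vim and Col3a1 were above background on every array and Col1a1, Col1a2, Pdgfra and Pdgfrb were not, and the endothelial (Pecam1, Kdr) and leukocyte (Ptprc, Cd68, Cd3e) markers were below it. The rat Creb3l1 probe set was below background in both groups, at 3.36 ± 0.02 and 3.39 ± 0.03 (SD, n = 3 each), and whether it reads the construct is not known.

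Mitosis genes were strongly detected in both groups, and none passed the test for a difference with CREB3L1. Of the 35 genes, 34 were above background and 30 had a mean of 10 or more, with single values from 3.67 to 15.01. The signals of different probe sets are not comparable with each other, so no order of abundance among genes is drawn from them. Cenpa, which encodes the histone that marks centromeres, was the member below background, at 3.70, 3.82 and 3.72 in untransfected and 3.79, 3.67 and 3.87 in CREB3L1 cells. Mki67, the gene of the proliferation antigen Ki-67, read 14.64, 14.60 and 14.82 in untransfected and 14.89, 14.98 and 15.01 in CREB3L1 cells.

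With all 6 arrays, 0 of the 35 genes rose and 0 fell at an adjusted p below 0.05 by limma, against 0.577% of all genes that rose and 1.52% that fell. At an unadjusted p below 0.05, 4 (11.4%) lay higher, Prc1, Mki67, Bub3 and Kif23, and 1 (2.86%) lower, Cdc25b. The shares of all genes were 6.05% and 7.99%. The median difference of the 35 genes was 0.03, with single genes from -0.41 to 0.37, and that of all genes was -0.01. Differences above 0 were found for 20 of the 35 (57.1%), against 46% of all genes. For 22 of the 35 genes the interval did not reach a 1.5-fold change (0.58 on the log2 scale) in either direction, which held for 76.1% of all genes. The median half-width of the interval was 0.29 for the 35 and 0.17 for all genes. It was 0.25 for the 4168 genes with a mean of 10 or more. The median absolute difference was 0.16 for the 35, 0.06 for all genes and 0.14 for those 4168. Shares of all genes, here and below, include genes below background, whereas 34 of the 35 were above it.

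Without CREB3L1 replicate 3 the differences were narrower and the counts of calls were again 0 and 0, against 2.02% of all genes that rose and 3.7% that fell. The median was 0.04 and single genes ran from -0.38 to 0.25. For the probe sets that stand for a gene, all 35 intervals lay within 1.5-fold, against 88.3% of all genes. The intervals of the second probe sets of Kif11, Kif23 and Hmmr reached past 1.5-fold upward, and that of Kif23 also downward. For these genes the reading therefore depended on the probe set, and a 1.5-fold change was not excluded. Differences above 0 were found for 26 of the 35 (74.3%), against 49.9% of all genes. Among the probe sets that stand for a gene, the limit was nearly reached by that of Cdc25b, whose interval ran from -0.58 to -0.17. At an unadjusted p below 0.05, 7 genes (20%) lay higher, the 4 above with Ccnf, Cenpe and Smc4. The 2 that lay lower (5.71%) were Cdc25b and Cenpf. The shares of all genes were 8.83% and 11.7%. The median half-width of the interval fell from 0.29 to 0.18, although 1 array fewer was used.

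**Figure D1:**
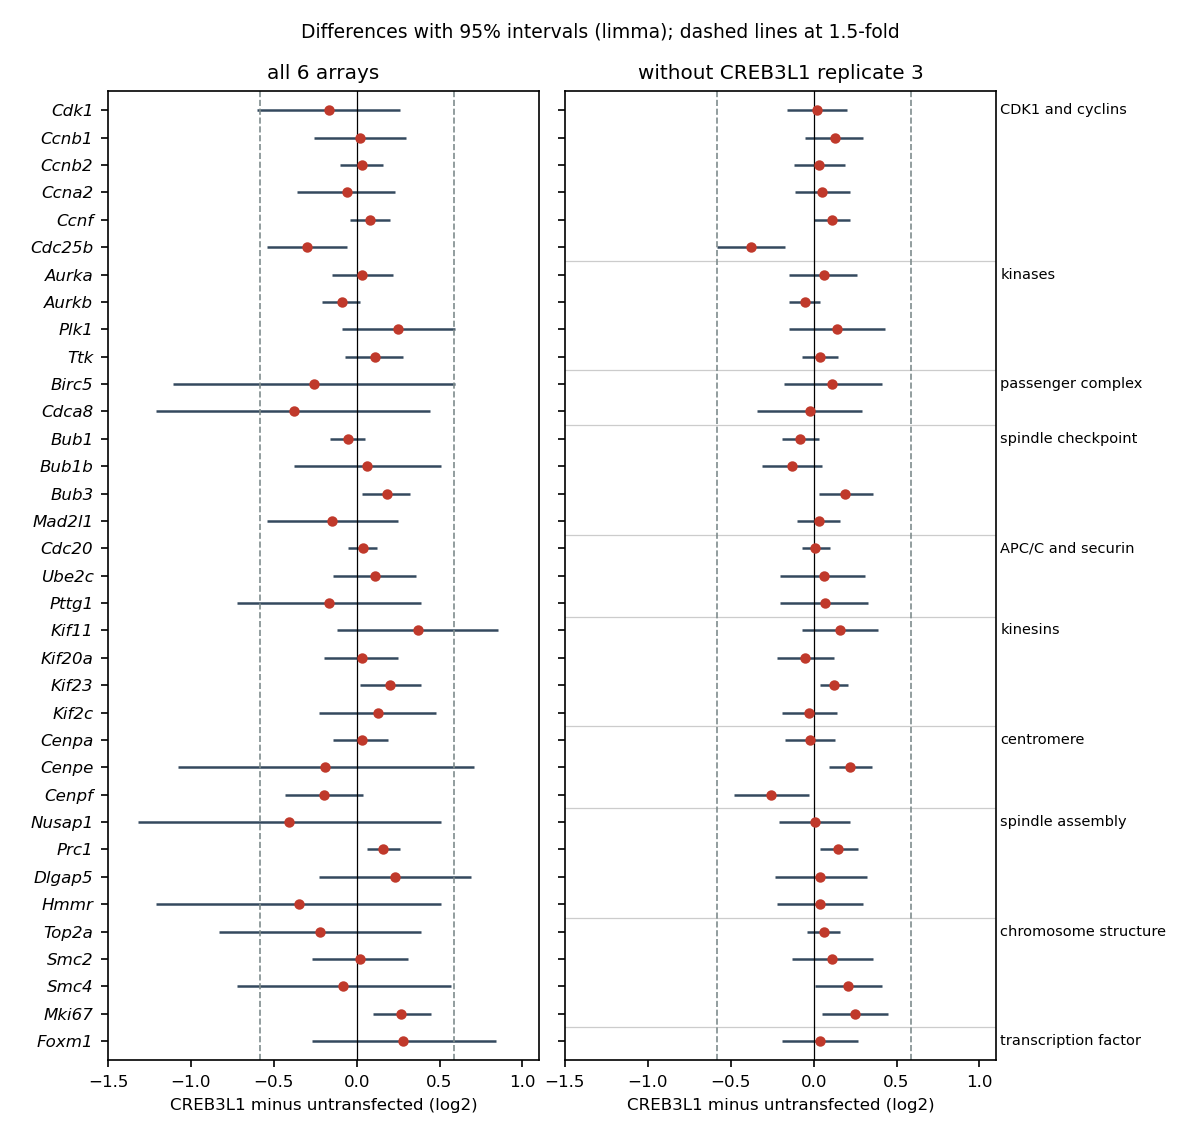
Difference of each measured mitosis and G2/M gene (log2, CREB3L1 minus untransfected; points) with its 95% interval (lines), with all 6 arrays on the left and without CREB3L1 replicate 3 on the right; dashed lines mark a 1.5-fold change. Each interval is that of the probe set that stands for the gene. With 6 arrays 22 of 35 intervals lie inside the dashed lines, and without that array all 35 do.

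Groups that do not overlap were read next. With all arrays, 4 genes (11.4%) had every CREB3L1 array above every untransfected array and 2 (5.71%) had every one below. The shares of all genes were 9% and 10.7%. The 4 separated upward were Prc1, Mki67, Bub3 and Kif23, and the 2 separated downward were Cdc25b and Aurkb. Without CREB3L1 replicate 3, 9 genes (25.7%) were separated upward and 4 (11.4%) downward, against 14.8% and 18.8% of all genes. Ccnb1, Ccnf, Cenpe, Top2a and Smc4 were added to the former, and Bub1 and Cenpf to the latter.

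**Figure D2:**
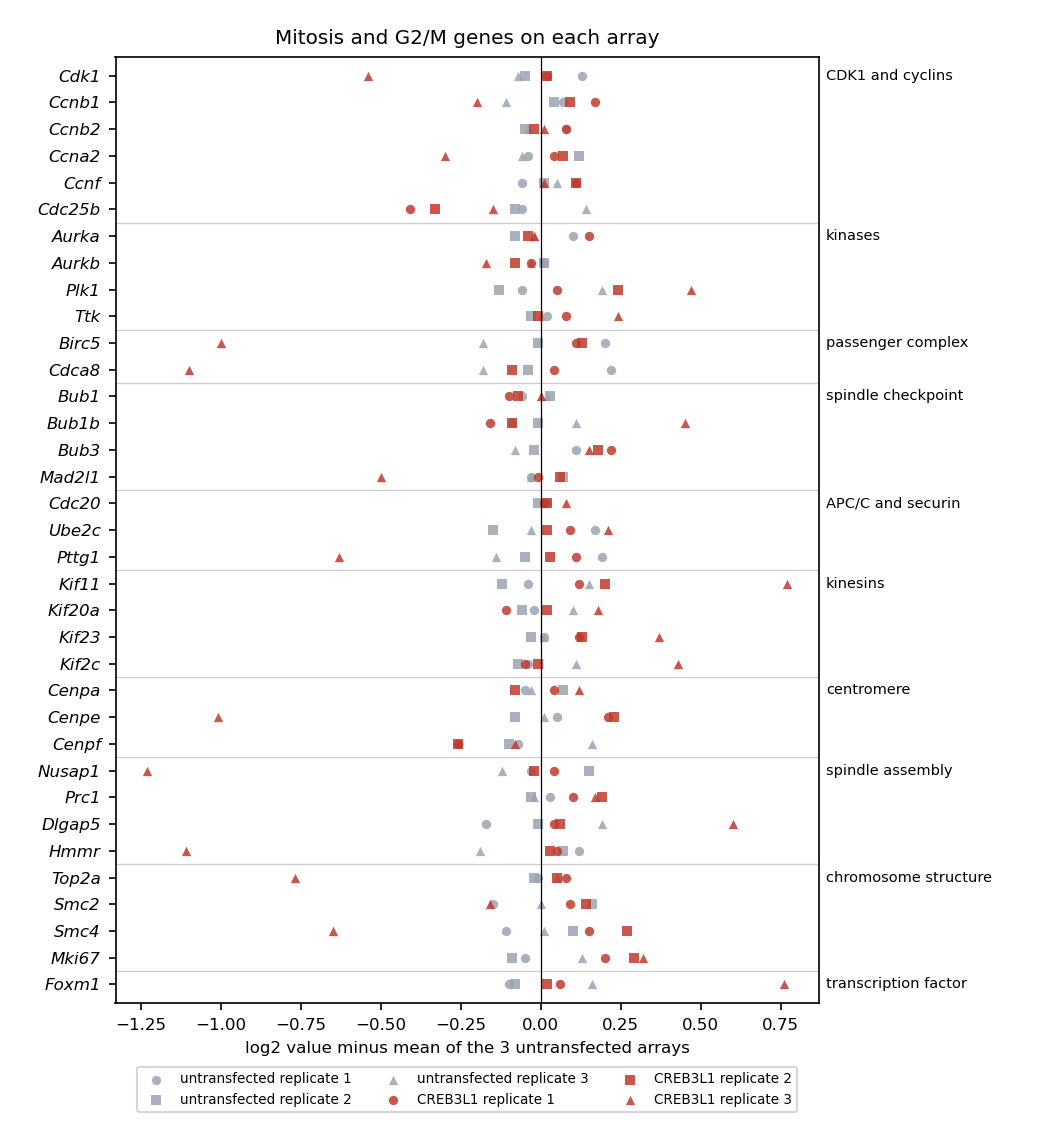
Value of each measured gene on each array minus the mean of its 3 untransfected arrays (log2); grey marks are untransfected and red marks CREB3L1 arrays, and genes are grouped by role. CREB3L1 replicates 1 and 2 lie close to the untransfected arrays, while replicate 3 (red triangles) lies between -1.24 and 0.72 from the mean of replicates 1 and 2.

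The cyclin-dependent kinase and cyclin genes, Cdc25b included, differed by -0.30 to 0.08. Cdk1 read 14.07, 13.89 and 13.87 in untransfected and 13.96, 13.96 and 13.40 in CREB3L1 cells, so the groups overlapped and only the last array was low. Its difference was -0.17 ± 0.17 (SE, adjusted p rounding to 1), and 0.02 ± 0.07 without that array, with an interval from -0.16 to 0.20. Ccnb1 read 12.30, 12.27 and 12.12 against 12.40, 12.32 and 12.03, a difference of 0.02 ± 0.11, and its second probe set gave -0.13. Ccnb2, the cyclin B2 gene, differed by 0.03 ± 0.05. Ccna2, the cyclin A2 gene, read 14.21, 14.37 and 14.19 against 14.29, 14.32 and 13.95, and differed by -0.06 ± 0.12. When CREB3L1 replicate 3 was left out, the differences were 0.13 ± 0.07 for Ccnb1, 0.03 ± 0.06 for Ccnb2 and 0.05 ± 0.07 for Ccna2. Ccnf, whose product is the F-box subunit of a ubiquitin ligase, differed by 0.08 ± 0.05 and by 0.11 ± 0.04 without replicate 3 (adjusted p = 0.343).

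Cdc25b, whose phosphatase removes inhibitory phosphates from cyclin-dependent kinases, had the lowest difference of these genes, and it did not pass the test. It read 9.29, 9.27 and 9.49 in untransfected and 8.94, 9.02 and 9.20 in CREB3L1 cells, so that every transfected array lay below every control. The difference was -0.30 ± 0.09 (adjusted p = 0.349). With CREB3L1 replicate 3 left out it was -0.38 ± 0.08 (adjusted p = 0.0875).

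Of the mitotic kinases, Aurka, the Aurora A gene, differed by 0.03 ± 0.07, and Ttk, the gene of the checkpoint kinase MPS1, by 0.11 ± 0.07. Aurkb, the Aurora B gene, read 12.81, 12.81 and 12.77 in untransfected and 12.77, 12.72 and 12.63 in CREB3L1 cells. The lowest control and the highest transfected array were equal to 2 decimals, and the difference was -0.09 ± 0.05 (adjusted p = 0.686). Plk1, the polo-like kinase gene, read 10.38, 10.31 and 10.63 against 10.49, 10.68 and 10.91, a difference of 0.25 ± 0.14 (adjusted p = 0.789) with overlapping groups. Leaving out CREB3L1 replicate 3 gave differences of 0.14 ± 0.11 for Plk1, 0.06 ± 0.08 for Aurka, 0.04 ± 0.04 for Ttk and -0.05 ± 0.04 for Aurkb.

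Birc5 and Cdca8, which encode survivin and borealin, the partners of Aurora B in the chromosomal passenger complex, varied with 1 array. Birc5 read 12.49, 12.28 and 12.11 in untransfected and 12.40, 12.42 and 11.29 in CREB3L1 cells, and Cdca8 read 11.78, 11.52 and 11.38 against 11.60, 11.47 and 10.46. Both had their lowest value on CREB3L1 replicate 3. Their differences were -0.26 ± 0.34 and -0.38 ± 0.33 with all arrays, and 0.11 ± 0.11 and -0.02 ± 0.12 without that array.

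Spindle checkpoint genes differed by -0.15 to 0.18. Bub3, which brings checkpoint kinases to kinetochores, read 13.50, 13.37 and 13.31 in untransfected and 13.61, 13.57 and 13.54 in CREB3L1 cells, with no overlap. The difference was 0.18 ± 0.06 (adjusted p = 0.373), and the group means of a second Bub3 probe set lay below background. Bub1, a checkpoint kinase gene, read 12.46, 12.55 and 12.54 against 12.42, 12.45 and 12.52, a difference of -0.05 ± 0.04. Bub1b, the BUBR1 gene, differed by 0.06 ± 0.18, and Mad2l1, the MAD2 gene, by -0.15 ± 0.16. On the 5 other arrays Bub3 gave 0.19 ± 0.07, Bub1 -0.08 ± 0.04, Bub1b -0.13 ± 0.07 and Mad2l1 0.03 ± 0.05.

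Genes of the machinery that acts once the checkpoint is met differed by -0.17 to 0.11. Cdc20, the activator of the anaphase-promoting complex, read 10.65, 10.62 and 10.64 in untransfected and 10.64, 10.65 and 10.71 in CREB3L1 cells, and its interval ran from -0.05 to 0.12. Its difference was 0.01 ± 0.03 without CREB3L1 replicate 3. Ube2c, the ubiquitin-conjugating enzyme of that complex, differed by 0.11 ± 0.10 with all arrays and 0.06 ± 0.10 without that one, and Pttg1, the securin gene, by -0.17 ± 0.22 with all arrays and 0.07 ± 0.10 without CREB3L1 replicate 3.

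The probe sets that stand for the 4 kinesin genes measured differed by 0.03 to 0.37, and none passed the test. With all arrays the sign depended on the probe set, since the second ones of Kif11, Kif23 and Kif2c, with group means above background, gave -0.33, -1.52 and -0.33. Their intervals ran from -2.28 to 1.63, -6.16 to 3.12 and -1.24 to 0.57. Without CREB3L1 replicate 3 these second probe sets gave 0.56, 0.55 and 0.07. Kif23, a motor of the central spindle, read 13.92, 13.88 and 13.92 in untransfected and 14.03, 14.04 and 14.28 in CREB3L1 cells, 0.20 ± 0.08 higher (adjusted p = 0.459) with no overlap. Kif11, the motor that pushes spindle poles apart, read 11.46, 11.38 and 11.65 against 11.62, 11.70 and 12.27, a difference of 0.37 ± 0.19 (adjusted p = 0.754). The values of Kif11 overlapped between groups, and without CREB3L1 replicate 3 the difference was 0.16 ± 0.09. Kif20a, which serves cytokinesis, differed by 0.03 ± 0.09 and Kif2c, a microtubule depolymerase gene, by 0.13 ± 0.14. Without that array Kif23 gave 0.12 ± 0.03, Kif20a -0.05 ± 0.07 and Kif2c -0.03 ± 0.06.

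At the centromere, Cenpe, the kinetochore motor gene, read 7.66, 7.53 and 7.62 in untransfected and 7.82, 7.84 and 6.60 in CREB3L1 cells. The first pair of transfected arrays lay above all controls and the third far below them. The difference turned from -0.19 ± 0.35 with all arrays to 0.22 ± 0.05 (adjusted p = 0.0989) without CREB3L1 replicate 3. Cenpf, a large kinetochore protein gene, read 12.01, 11.98 and 12.24 against 11.82, 11.82 and 12.00, a difference of -0.20 ± 0.09 (adjusted p = 0.671), and -0.26 ± 0.09 without that array (adjusted p = 0.261).

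Spindle assembly genes differed by -0.41 to 0.23 with all arrays and by 0.01 to 0.15 without CREB3L1 replicate 3. Prc1, which bundles antiparallel microtubules of the central spindle, read 12.24, 12.18 and 12.19 in untransfected and 12.31, 12.40 and 12.38 in CREB3L1 cells, with no overlap. The difference was 0.16 ± 0.04 (adjusted p = 0.197), and Prc1 passed the test in 1 alternative, array weights (0.18, adjusted p = 0.0422). Without CREB3L1 replicate 3 it was 0.15 ± 0.04 (adjusted p = 0.191). Nusap1, a microtubule-binding protein gene, gave -0.41 ± 0.36, and 0.01 ± 0.09 without CREB3L1 replicate 3. Hmmr, the gene of a spindle-associated hyaluronan receptor, gave -0.35 ± 0.34 and 0.04 ± 0.10. Dlgap5, which stabilises kinetochore fibres, gave 0.23 ± 0.18 and 0.04 ± 0.11.

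Among genes of chromosome structure, Mki67 lay 0.27 ± 0.07 higher (adjusted p = 0.224), with groups that did not overlap, and 0.25 ± 0.08 higher without CREB3L1 replicate 3 (adjusted p = 0.214). Top2a, the topoisomerase that untangles sister chromatids, read 13.95, 13.94 and 14.01 in untransfected and 14.04, 14.01 and 13.19 in CREB3L1 cells. Its difference was -0.22 ± 0.24, and 0.06 ± 0.04 without the low array, with an interval from -0.04 to 0.16. The condensin subunit genes Smc2 and Smc4 differed by 0.02 ± 0.11 and -0.08 ± 0.26, and by 0.11 ± 0.10 and 0.21 ± 0.08 without CREB3L1 replicate 3. None of the 4 passed the test in either reading.

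Foxm1, the transcription factor that drives many G2 genes, read 8.36, 8.38 and 8.62 in untransfected and 8.52, 8.48 and 9.22 in CREB3L1 cells. The difference of 0.28 ± 0.22 rested on the last value, and it was 0.04 ± 0.09 without it, with an interval from -0.19 to 0.27. Measured genes whose promoter held both a CCAAT and a CHR match, 24 in number, had a median difference of 0.03, and 0.07 without CREB3L1 replicate 3. The 7 measured genes with a promoter entry that lacked such a pair had medians of 0.03 and -0.03.

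The members varied mainly with CREB3L1 replicate 3. Between CREB3L1 replicates 1 and 2 the median absolute difference over the 35 genes was 0.06 and the largest was 0.19, and between untransfected replicates 1 and 2 the values were 0.09 and 0.32. Against the mean of replicates 1 and 2, CREB3L1 replicate 3 was lower by over 0.5 for 10 of the 35 genes and higher by over 0.5 for 4. Counting every member probe set above background, 17 of 45 were lower by that much (37.8%) and 4 were higher (8.89%), against 18% and 15.9% of the 11943 probe sets above background. The 5' signal of control transcripts was low on the same array, and its part in these values was not tested.

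For several genes, probe sets of the same gene disagreed on CREB3L1 replicate 3. They were close for Ccnb1, at -0.33 and -0.36 from the mean of CREB3L1 replicates 1 and 2, and for Hmmr, at -1.15 and -0.98. Of the 10 genes read by 2 or 3 probe sets above background, 7 had differences of opposite sign with all arrays, and the median gap between probe sets was 0.32. Neither value was computed over all genes. Without CREB3L1 replicate 3 the median gap was 0.11. Kif23 was the extreme. Its second probe set read 9.31, 9.37 and 7.74 in untransfected and 9.51, 9.20 and 3.16 in CREB3L1 cells, so that the last array stood at -6.20 from the mean of replicates 1 and 2, where the first probe set stood at 0.24. The second Kif11 probe set read 9.01, 9.06 and 8.53 against 9.32, 9.52 and 6.77, and its difference of -0.33 opposed the 0.37 of the first. Both second probe sets lay above 0 without the array, at 0.55 for Kif23 and 0.56 for Kif11. For other genes the first probe set and a further one gave 0.13 and -0.33 (Kif2c), 0.04 and -0.30 (Cdc20), 0.11 and -0.06 (Ttk), 0.02 and -0.13 (Ccnb1), -0.41 and -0.02 (Nusap1), -0.35 and -0.06 (Hmmr), and -0.22 and -0.54 (Top2a). The 3 Mad2l1 probe sets gave -0.15, 0.12 and -0.20. Without CREB3L1 replicate 3 the further probe sets gave 0.07 for Kif2c, 0.05 for Cdc20, 0.07 for Ttk and -0.01 for Ccnb1. In that reading they gave -0.12 for Nusap1, 0.26 for Hmmr, 0.03 for Top2a, and 0.06 and 0.09 for Mad2l1. None of these passed the test.

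**Figure D3:**
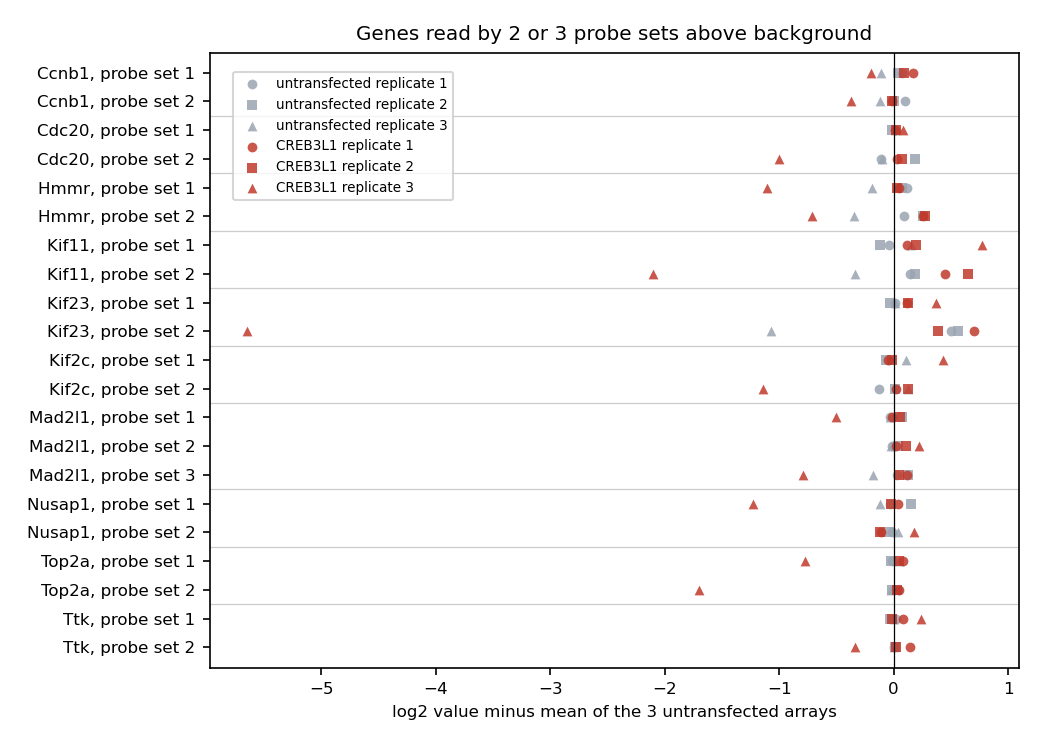
Value of each probe set on each array minus its untransfected mean (log2), for the 10 member genes with 2 or 3 probe sets above background; probe set 1 stands for the gene elsewhere. CREB3L1 replicate 3 (red triangles) departs by unequal amounts in the probe sets of several genes, though by similar amounts for Ccnb1. The gap is largest for Kif23, where it stands at -6.20 and at 0.24 from the mean of CREB3L1 replicates 1 and 2.

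The low values on the second Kif23 probe set were not limited to the transfected cells, since untransfected replicate 3 was also low there. Over the 45 member probe sets, the departure of untransfected replicate 3 from untransfected replicates 1 and 2 had the same sign as that of CREB3L1 replicate 3 from CREB3L1 replicates 1 and 2 in 37 (82.2%), against 71.1% of all probe sets above background. Pearson's r between the departures was 0.88 and Spearman's rho 0.72 over these 45 probe sets, 0.75 and 0.74 over the 35 probe sets that stand for a gene, and 0.64 and 0.58 over all 11943. The second Kif23 probe set, at -1.60 and -6.20, lay far from the rest and weighs heavily on the r of 0.88. The r without it was not computed. These correlations describe 2 arrays, are across probe sets that share them, and carry no test. The departures were far smaller in untransfected replicate 3, with an SD of 0.30 against 1.12. Its beta-actin gap of 3.41 was the largest outside CREB3L1 replicate 3, near the 3.05 of untransfected replicate 1. Its Gapdh gap was -0.10, against 4.77 in CREB3L1 replicate 3, and a link to the departures was not tested.

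**Figure D4:**
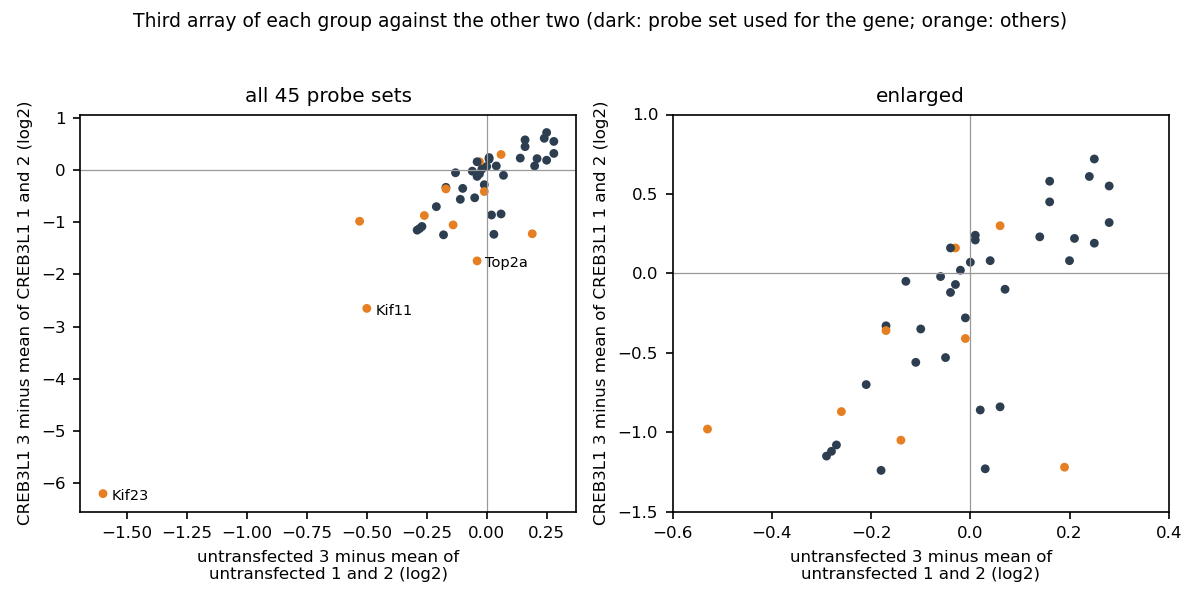
Departure of replicate 3 from the mean of replicates 1 and 2 (log2), for untransfected arrays on the horizontal and CREB3L1 arrays on the vertical axis, over the 45 member probe sets above background; the right panel enlarges the centre and leaves out points beyond its axes. Of the 45 points 22 lie low and 15 high on both arrays, and the lowest on both is the second Kif23 probe set.

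Other genes of mitosis outside the list of 40 were read for comparison, 89 measured of 100 drawn up from textbook roles. With all arrays 0 rose and 1 fell (1.12%) by limma, their median difference was 0.07, and at an unadjusted p below 0.05, 10 lay higher and 5 lower (11.2% and 5.62%). The shares of all genes were 0.577% and 1.52% for the adjusted calls and 6.05% and 7.99% for the unadjusted ones. Array weights called 6 higher and 3 lower, and the share of all genes called with them was not computed. The higher ones with the smallest p were Cenpi, a kinetochore gene (0.41 ± 0.06, adjusted p = 0.0573), and Cdca2, which brings protein phosphatase 1 to chromatin (0.42 ± 0.07, adjusted p = 0.0794). Cdca2 stood at 0.39 ± 0.08 (adjusted p = 0.0672) when CREB3L1 replicate 3 was left out. The one that fell was Depdc1, a mitotic gene of the DEP domain family, from 12.08, 12.13 and 12.16 to 11.75, 11.75 and 11.80, a difference of -0.35 ± 0.03 (adjusted p = 0.0167). The groups did not overlap, and the difference was -0.37 ± 0.04 (adjusted p = 0.0131) without CREB3L1 replicate 3. Depdc1 did not pass under a mean-variance trend (adjusted p = 0.146), with dim probe sets left out (0.0644), in the test without moderation (0.0567) or without any 1 array other than CREB3L1 replicate 3 (0.0652 to 0.106), with differences of -0.37 to -0.33 in these settings.

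Without CREB3L1 replicate 3, 4 of the 89 rose and 3 fell (4.49% and 3.37%), against 2.02% and 3.7% of all genes, and the median was 0.04. At an unadjusted p below 0.05, 17 lay higher and 10 lower (19.1% and 11.2%), against 8.83% and 11.7% of all genes. The 4 that rose were Fbxo5, the gene of the anaphase-promoting complex inhibitor EMI1 (0.28 ± 0.04, adjusted p = 0.0281), Cenpi (0.36 ± 0.05, 0.0302), Ska3, whose complex couples kinetochores to microtubules (0.39 ± 0.06, 0.0345), and Stag2, a cohesin subunit gene (0.34 ± 0.05, 0.0379). Besides Depdc1, the ones that fell were Spc24, of the NDC80 complex (-0.67 ± 0.09, 0.0232), and Smc1a, of cohesin (-0.45 ± 0.07, 0.0385). Ska3 had read 9.40, 9.46 and 9.30 in untransfected and 9.79, 9.76 and 7.85 in CREB3L1 cells, and its difference with all arrays was -0.26 ± 0.56. The other 5 apart from Depdc1 had the same sign with all arrays and did not pass the test there.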

How the data were processed

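The 6 arrays were 3 of untransfected and 3 of CREB3L1-transfected LN4D6 cells. The authors deposited 1 log2 expression value per probe set and array, and the submitters' processing notes name Partek 6.6 and RMA. The log base is not given in the sources read for this work, nor are the probe-level settings, so the values were taken as log2 from their range. The table was used as deposited. Of 31099 probe sets, 57 controls were set aside. Symbols were those of GEO's platform annotation and may be outdated, and 0 changed against the RefSeq gene table of GRCr8. 20826 probe sets had 1 symbol, 436 several and 9780 none.

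limma 3.58.1 (R 4.3.3) compared the groups, with lmFit and a two-sided eBayes test without trend, with Benjamini-Hochberg adjustment over 31042 probe sets and a threshold of 0.05. The fit was checked on simulated data with the same spread on every array, so the check does not cover the larger departures of CREB3L1 replicate 3. Replicates are numbered in deposit order, and the labels name no separate cultures, so p-values measure only the spread between these samples, which may be technical. The 3 arrays per group limit the precision. The members, lists, alternatives and the reading without CREB3L1 replicate 3 were chosen with earlier results of these data known. All members are named. Every array value is given for the 4 with the smallest p in each direction, the 3 with the highest and the 3 with the lowest mean, those whose probe sets differ by over 0.3 on both sides of 0, and, chosen after their values were seen, some that represent a role. Of the other mitosis genes, up to 4 past the threshold in each direction are named, or, with none past it, the 2 of smallest p, with all arrays and without CREB3L1 replicate 3. Alternatives were quantile normalisation, median centring, leaving out dim probe sets, a mean-variance trend, robust eBayes, a test without moderation, array weights, leaving out each array, and averaging a gene's probe sets.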

Additional observations from a re-analysis of the deposited data

How the results depend on the processing

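The counts of 0 rising and 0 falling mitosis and G2/M genes held in every alternative run, except that array weights, which gave CREB3L1 replicate 3 a weight of 0.17, called 1 gene higher (Prc1). Of the other mitosis genes, array weights called 6 higher and 3 lower, and the mean of all probe sets called 2 higher. With dim probe sets left out, with a mean-variance trend and without moderation, 0 lower were called. The share of all genes called was not computed in these settings, so these counts and the Prc1 call have no background to be read against. Leaving out 1 array at a time gave 0 to 4 higher and 0 to 3 lower of these genes, the upper ends without CREB3L1 replicate 3. The median difference of the 35 genes was -0.05 with the mean of all probe sets and -0.01 to 0.04 with 1 array left out. Background levels of 4 and 6 left the count of genes below background at 1. No paired analysis was possible because the labels give the groups no shared replicate numbers.

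Differences changed sign for many genes, larger ones such as Nusap1 (-0.41 with all arrays) and Hmmr (-0.35) included. None of these genes was past the threshold with all arrays, and Ska3 passed it by limma without CREB3L1 replicate 3 (adjusted p = 0.0345). With array weights Cdk1 gave 0.02, Ccna2 0.03, Birc5 0.11, Bub1b -0.11, Mad2l1 0.01, Pttg1 0.06, Kif20a -0.01, Kif2c 0.00, Cenpa -0.06, Cenpe 0.19, Hmmr 0.00, Top2a 0.01, Smc4 0.17 and Ska3 0.29. With the mean of all probe sets Ccnb1 gave -0.06, Cdc20 -0.05, Kif2c -0.10 and Kif23 -0.66, the last through its second probe set. With 1 array left out, the difference ran from -0.03 to 0.08 for Aurka, -0.45 to 0.11 for Birc5, -0.13 to 0.18 for Bub1b, -0.13 to 0.05 for Ccna2, -0.06 to 0.13 for Ccnb1, 0.00 to 0.07 for Ccnb2, -0.26 to 0.02 for Cdk1, -0.02 to 0.08 for Cenpa, -0.40 to 0.22 for Cenpe and -0.54 to 0.04 for Hmmr. It ran from -0.05 to 0.10 for Kif20a, -0.03 to 0.21 for Kif2c, -0.25 to 0.03 for Mad2l1, -0.63 to 0.01 for Nusap1, -0.31 to 0.07 for Pttg1, -0.59 to 0.39 for Ska3, -0.06 to 0.11 for Smc2, -0.25 to 0.21 for Smc4 and -0.37 to 0.06 for Top2a. For 14 of the 35 genes the sign changed without CREB3L1 replicate 3, and for 1 to 4 without any other array. The share of all genes that changed sign was not computed. The cause was not tested. The median half-width of the 95% intervals, 0.29 with 6 arrays and 0.18 without CREB3L1 replicate 3, limits the size of difference that could be resolved for a typical gene.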
